A study of Mus musculus with 6 samples.

Results

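The genes described here are 33 human genes of DNA replication and S phase entry, most of them known targets of the E2F transcription factors. They were listed by symbol, and each was read by its brightest probe set (the group of array probes for 1 transcript) among those annotated to a single gene. Of the 33 genes, 26 had a mean log2 intensity of at least 4 over all 6 arrays and were tested among 10271 genes that met this level, out of 19775 genes with such a probe set. Just inside this level lay MCM10 (mean log2 4.05), and the nearest gene outside it was CCNE1 (3.14). The other 7 genes are accounted for at the end.

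The RNA came from tumours that NCI-H2228 formed under the skin of SCID mice, which lack functional B and T cells. NCI-H2228 is a line of human lung adenocarcinoma cells with the fusion gene EML4-ALK. The mice received by mouth either vehicle (0 mg/kg) or CH5424802, an ALK kinase inhibitor later named alectinib, at 4 mg/kg or at 20 mg/kg. All tumours were taken 6 h after the dose, so the vehicle group shares the line, the host and the time with both treated groups. The 3 groups have 2 arrays each. The labels give no age, sex or tumour size, nor whether both arrays of 1 group stem from different mice. The p-values therefore reflect the spread among the arrays alone, and this spread could be technical. A single cell line in 1 host strain was used, and in RNA from whole tumours fewer cells in S phase and less RNA per cell cannot be told apart.

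As background, replication starts at origins that are loaded with the MCM2-7 helicase by the origin recognition complex, CDC6 and CDT1 during G1. At the start of S phase, CDC45, the GINS complex and MCM10 turn the loaded helicase into a moving fork, where DNA polymerases, the PCNA clamp and its loader copy both strands. Transcription of many of these genes is held down by RB family proteins bound to E2F factors and is released when cyclin D and cyclin E kinases phosphorylate them, and ALK signalling reaches cyclin D1 through the RAS and MAPK pathway.

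After processing, the arrays were alike in their overall level, with medians from 5.02 to 5.15 on the intensity scale. Between 39.5% and 40.2% of probe sets were at the lowest value of 4.58 (log2 2.19). The processing normalizes quantiles, which makes arrays alike in such values, so they are no check on array quality. A probe set for 18S ribosomal RNA differed, at 1713 and 4058 with vehicle, 489 and 374 with 4 mg/kg and 573 and 637 with 20 mg/kg. The vehicle arrays therefore lay above all treated arrays in this control, which moves with every comparison against vehicle below, and its part in those results was not tested. The ratios of 3′ to 5′ signal for ACTB and GAPDH, a sign of RNA integrity, ran from 0.988 to 1.07 and from 0.844 to 0.993 over the 6 arrays. DUSP6, a feedback phosphatase that reports ERK signalling, had log2 values of 13.70 and 13.64 with vehicle, 13.43 and 13.05 with 4 mg/kg and 8.28 and 8.12 with 20 mg/kg. At 20 mg/kg against vehicle it fell by 5.47 on the log2 scale (SE 0.15, limma adjusted p = 0.0104).

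Of the markers of the epithelial tumour cells, 9 of 9 passed the level filter, and their intensities summed to 92253 and 102723 with vehicle, 98113 and 100422 with 4 mg/kg, and 81532 and 88362 with 20 mg/kg. Both 20 mg/kg sums lay below those of all other arrays. At 20 mg/kg against 4 mg/kg, 8 of the 9 had a lower mean (51.6% of all tested genes) and 1 a higher one, at a median log2 change of -0.16. Whether this bears on the replication genes was not tested. Of the host markers with a probe set, 5 of 8 for fibroblasts, 2 of 6 for leukocytes, 2 of 5 for endothelium and 1 of 2 for red cells passed the filter, while PTPRC and CD163 of leukocytes, VWF and CDH5 of endothelium and PDGFRA and PDGFRB of fibroblasts all lay under the level filter. No host marker passed the test in any comparison. The 8 fibroblast markers summed to 36664 and 39426 with vehicle, 37592 and 36414 with 4 mg/kg, and 35942 and 40330 with 20 mg/kg, with overlap between all groups. The array was made for human genes and the labels name the mouse as organism, so these counts are a limited check on host cells.

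None of the 26 listed genes that were tested passed at either dose. By group means, 17 of the 26 were highest at 4 mg/kg (65.4%, against 28% of all tested genes): in 10 of them the 20 mg/kg mean was below the vehicle mean, in 6 (CDT1, PCNA, RFC4, RRM1, CCNE2 and SLBP) it was above, and in E2F2 both were equal. Another 7 (CDC6, MCM2, MCM3, MCM5, MCM7, FEN1 and CHAF1A) were lower at each step of dose (26.9%, against 22.7% of all tested genes). None was lowest at 4 mg/kg and none was higher at each step, orders that 21.4% and 16.8% of all tested genes had. The other 2, MCM10 and PRIM1, had equal means in at least 2 groups, as did 11.1% of all tested genes. The count of 17 was 11 when 4 mg/kg replicate 2 was left out, and 20 when its partner was.

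**Figure D1:**
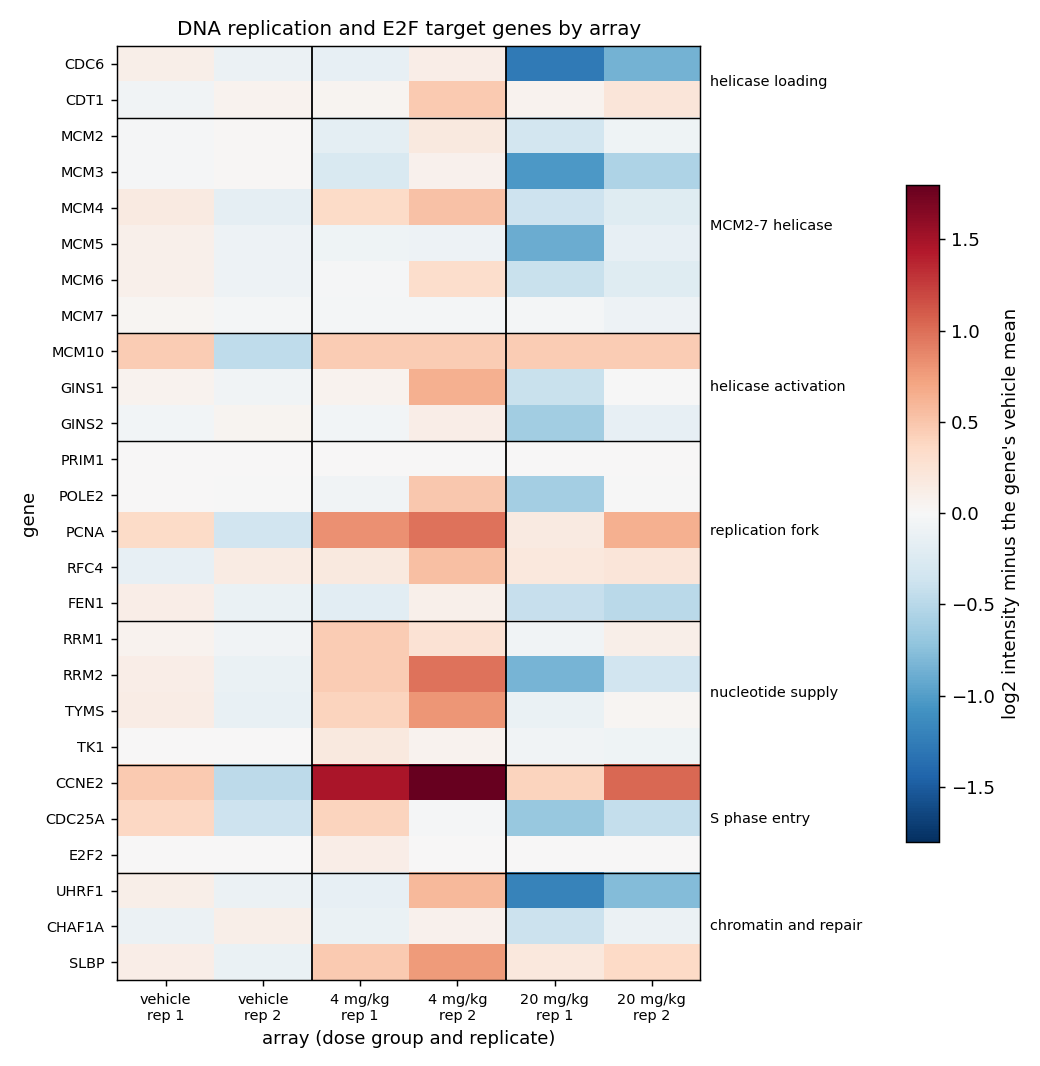
Log2 intensity of the 26 replication genes that passed the level filter (rows, grouped by role) in each of the 6 arrays (columns, by dose group and replicate), as the difference from the mean of the vehicle arrays of the same gene. Red is above the vehicle mean and blue below it. At 4 mg/kg, replicate 2 is mostly red (21 genes above the vehicle mean and 3 below), while replicate 1 is mixed (14 above and 11 below). CCNE2 is at the top of the scale. The 20 mg/kg columns are mostly blue, with CDC6, MCM3 and UHRF1 the bluest.

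At 20 mg/kg against vehicle, the helicase loader CDC6, the helicase subunit MCM3 and the chromatin protein UHRF1 were at log2 changes of -1.06, -0.80 and -0.99, and CCNE2, PCNA and SLBP were at 0.72, 0.39 and 0.27. None of the 26 genes passed the limma test (Benjamini-Hochberg over all tested genes, threshold 0.05), where 4.33% of all tested genes did. The smallest adjusted p was 0.0837, for CDC6. At an unadjusted p under 0.05 there were 4 genes (CDC6, MCM3, FEN1 and UHRF1), all lower, which is 15.4% against 24.2% of all tested genes. The mean was lower in 17 genes (65.4%, against 49.4% of all tested genes) and higher in 7 (26.9%, against 41.8%). In 12 genes (46.2%) both 20 mg/kg arrays lay below both vehicle arrays, as in 25.9% of all tested genes, and in 3 (11.5%) both lay above, as in 24.5%. The median log2 change was -0.20 for the 26 genes and 0.00 for all tested genes. This median was -0.08 without 20 mg/kg replicate 1, -0.35 without its partner and -0.13 without vehicle replicate 1. In that last fit MCM10 alone of the 26 passed the test, among 802 of all 10271 genes (7.81%).

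At 4 mg/kg against vehicle, cyclin E2, the PCNA clamp, the ribonucleotide reductase subunit RRM2 and the histone mRNA protein SLBP had the largest differences, with log2 changes from 1.65 for CCNE2 to 0.62 for SLBP, while the helicase subunits MCM2, MCM3, MCM5 and MCM7 were between -0.10 and 0.00. None of the 26 genes passed the test, where 0.0584% of all tested genes did, and the smallest adjusted p was 0.211, for SLBP. At an unadjusted p under 0.05 there were 4 genes (RRM1, TYMS, CCNE2 and SLBP), all higher, or 15.4% against 17% of all tested genes. The mean was higher in 18 genes (69.2%, against 45.3% of all tested genes) and lower in 7 (26.9%, against 47%). In 10 genes (38.5%) both 4 mg/kg arrays lay above both vehicle arrays, as in 22.8% of all tested genes, and in none did both lie below, as in 14.8%. The median log2 change was 0.20 for the 26 genes and 0.00 for all tested genes. The median was 0.06 without 4 mg/kg replicate 2, when 14 genes had a higher and 11 a lower mean, and 0.09 without vehicle replicate 2. Only 3 genes had a lower mean without 4 mg/kg replicate 1 and 4 without vehicle replicate 1. In that last fit MCM10 alone of the 26 passed the test, among 475 of all 10271 genes (4.62%).

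Between the doses, 24 of the 26 genes had a lower mean at 20 mg/kg than at 4 mg/kg (92.3%, against 51.6% of all tested genes), and none had a higher one (39.7%). RRM2 (log2 -1.30), UHRF1 (-1.20), CDC6 (-1.05) and CCNE2 (-0.93) differed most. None passed the test, where 0.37% of all tested genes did, and CDC6 again had the smallest adjusted p, 0.172. At an unadjusted p under 0.05 there were 10 genes, all lower, or 38.5% against 13.4% of all tested genes. In 17 genes (65.4%) both 20 mg/kg arrays lay below both 4 mg/kg arrays, as in 22.8% of all tested genes, and in none did both lie above, as in 13.6%. The median log2 change was -0.43 for the 26 genes and -0.01 for all tested genes, with a range from -0.604 when 20 mg/kg replicate 2 was left out to -0.255 when replicate 1 was. It was -0.28 without 4 mg/kg replicate 2, and 22 genes then had a lower mean and 2 a higher one. The 3 comparisons share arrays in pairs, so their counts are not independent of each other.

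**Figure D2:**
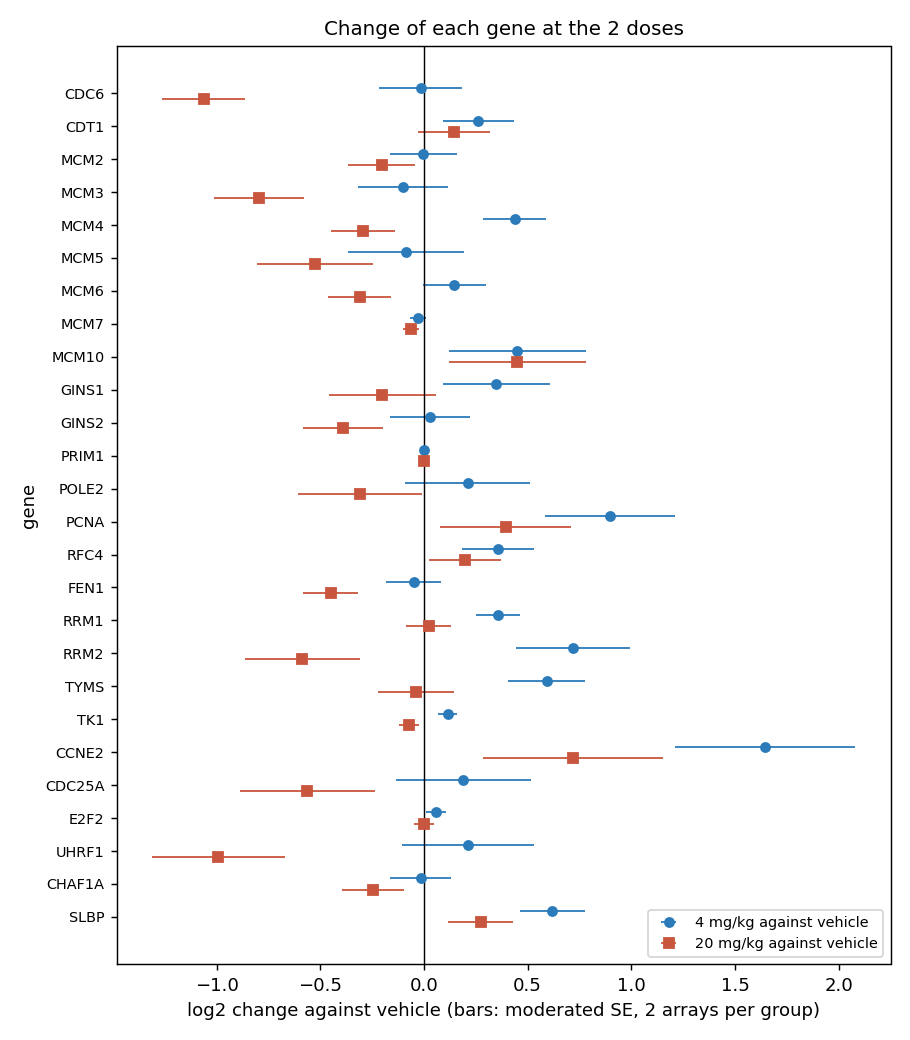
Log2 change of each of the 26 genes at 4 mg/kg (circles) and 20 mg/kg (squares) against vehicle, with bars for limma's moderated standard error over 2 arrays per group. For 24 genes the square lies left of the circle, and the exceptions are MCM10 and PRIM1, whose means were equal at both doses. CCNE2 stands furthest right, at 1.65 at 4 mg/kg, and CDC6 furthest left, at -1.06 at 20 mg/kg.

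Of the helicase loading factors, CDC6, the ATPase that brings MCM2-7 to origins, had log2 values of 8.07 and 7.84 with vehicle, 7.80 and 8.08 with 4 mg/kg and 6.69 and 7.10 with 20 mg/kg. Both arrays at 20 mg/kg lay below all 4 others, and the arrays at 4 mg/kg overlapped those with vehicle. The log2 change was -1.06 at 20 mg/kg (SE 0.20, a 2.09-fold lower mean, adjusted p = 0.0837) and -0.01 at 4 mg/kg (adjusted p = 1). CDT1, which loads MCM2-7 together with CDC6, did not share this course, with log2 changes of 0.15 at 20 mg/kg and 0.26 at 4 mg/kg.

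The 6 subunits of the MCM2-7 helicase all had lower means at 20 mg/kg than with vehicle, with log2 changes from -0.80 for MCM3 to -0.06 for MCM7. MCM3 had log2 values of 11.60 and 11.65 with vehicle, 11.35 and 11.70 with 4 mg/kg and 10.59 and 11.07 with 20 mg/kg. Its 20 mg/kg arrays lay below all others, and the log2 change was -0.80 (SE 0.22, adjusted p = 0.142). MCM5 had 7.79 and 7.61 with vehicle, 7.62 and 7.61 with 4 mg/kg and 6.81 and 7.55 with 20 mg/kg. Its low mean rested on replicate 1, since the log2 change of -0.52 at 20 mg/kg (adjusted p = 0.377) became -0.15 without that array and -0.89 without its partner. MCM4 followed another course, with 11.55 and 11.21 with vehicle, 11.72 and 11.91 with 4 mg/kg and 11.01 and 11.16 with 20 mg/kg. The 3 groups of MCM4 did not overlap, at log2 changes of 0.44 at 4 mg/kg (SE 0.15, adjusted p = 0.296; 0.27 without vehicle replicate 2) and -0.29 at 20 mg/kg (adjusted p = 0.373; -0.12 without vehicle replicate 1), and 20 mg/kg against 4 mg/kg gave -0.73 (adjusted p = 0.192). MCM2 and MCM6 were at -0.20 and -0.31 at 20 mg/kg with no overlap with vehicle, while MCM7 overlapped and had the same value of 10.35 in 4 of the 6 arrays.

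Among the factors that activate the helicase, GINS1 and GINS2, subunits of the GINS complex, had their lowest means at 20 mg/kg. GINS1 had log2 values of 6.40 and 6.28 with vehicle, 6.41 and 6.98 with 4 mg/kg and 5.95 and 6.34 with 20 mg/kg. Only 4 mg/kg replicate 2 stood clearly above vehicle, and without it the log2 change at 4 mg/kg was 0.06 in place of 0.35 (adjusted p = 0.566), whereas it was 0.64 without its partner. GINS2 was at -0.39 at 20 mg/kg, with both arrays below vehicle (-0.15 and -0.63 with replicate 1 or 2 of that dose left out), and at 0.03 at 4 mg/kg. MCM10, a scaffold that helps the helicase start, read 3.30 in vehicle replicate 2 and 4.20 in all 5 other arrays, so its log2 change of 0.45 at both doses came from 1 array and was 0.00 without it. By the second probe set of MCM10 (mean log2 4.02) the dose groups did not overlap. The log2 changes there were 0.39 at 4 mg/kg and -0.41 at 20 mg/kg, neither past the threshold.

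At the replication fork, PCNA, the sliding clamp that holds the polymerases on DNA, had log2 values of 11.27 and 10.57 with vehicle, 11.74 and 11.90 with 4 mg/kg and 11.08 and 11.56 with 20 mg/kg. Both arrays at 4 mg/kg lay above all others. The log2 change was 0.90 at 4 mg/kg (SE 0.32, 1.86-fold, adjusted p = 0.295), or 0.55 without vehicle replicate 2, and 0.39 at 20 mg/kg (adjusted p = 0.512). The value at 20 mg/kg rested on vehicle replicate 2, without which it was 0.05. RFC4, a subunit of the loader that opens PCNA, had 10.77 and 11.07 with vehicle, 11.10 and 11.46 with 4 mg/kg and 11.10 and 11.13 with 20 mg/kg. All treated arrays of RFC4 lay above vehicle, at log2 changes of 0.36 at 4 mg/kg (SE 0.17, adjusted p = 0.436) and 0.20 at 20 mg/kg, and the first was 0.18 with 4 mg/kg replicate 2 left out and 0.20 with vehicle replicate 1 left out. FEN1, the nuclease that trims Okazaki fragments, went the other way: both 20 mg/kg arrays (9.54 and 9.48) lay below both vehicle arrays (10.07 and 9.84), with a log2 change of -0.45 (SE 0.13, adjusted p = 0.16). POLE2, a subunit of polymerase epsilon, was at 0.21 at 4 mg/kg and -0.31 at 20 mg/kg with overlapping arrays, and at 0.00 at 20 mg/kg without replicate 1 of that dose. PRIM1, the primase subunit that starts each primer, had the same value of 7.69 in all 6 arrays and so carries no information on dose.

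The 4 genes of nucleotide supply had higher means at 4 mg/kg than with vehicle and lower means at 20 mg/kg than at 4 mg/kg, in each case without overlap between arrays. RRM2, the subunit of ribonucleotide reductase that limits its activity in S phase, had log2 values of 9.30 and 9.05 with vehicle, 9.64 and 10.15 with 4 mg/kg and 8.34 and 8.83 with 20 mg/kg. Its 3 groups did not overlap at all. The log2 change was 0.72 at 4 mg/kg (SE 0.28, adjusted p = 0.329) and -0.59 at 20 mg/kg (adjusted p = 0.324), and 20 mg/kg against 4 mg/kg gave -1.30 (2.47-fold lower, adjusted p = 0.192). The change at 4 mg/kg was 0.46 with replicate 2 of that dose left out, and the change at 20 mg/kg was -0.34 with replicate 1 of that dose left out. RRM1, the large subunit of the same enzyme, had 12.03 and 11.90 with vehicle, 12.41 and 12.22 with 4 mg/kg and 11.90 and 12.07 with 20 mg/kg. TYMS, which makes thymidylate, had 11.06 and 10.80 with vehicle, 11.33 and 11.72 with 4 mg/kg and 10.81 and 10.97 with 20 mg/kg. In both genes only the 4 mg/kg arrays stood apart, with log2 changes against vehicle of 0.36 for RRM1 (SE 0.11, adjusted p = 0.248) and 0.59 for TYMS (SE 0.18, adjusted p = 0.26), and of 0.02 and -0.04 at 20 mg/kg. TK1, the thymidine kinase of the salvage route, had small differences of 0.11 at 4 mg/kg and -0.07 at 20 mg/kg.

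Among the regulators of S phase entry, CCNE2, the cyclin E partner of CDK2, had log2 values of 8.34 and 7.40 with vehicle, 9.34 and 9.69 with 4 mg/kg and 8.28 and 8.91 with 20 mg/kg. Both arrays at 4 mg/kg were above all others, and vehicle replicate 2 was far below the rest. The log2 change was 1.65 at 4 mg/kg (SE 0.43, 3.13-fold, adjusted p = 0.217), or 1.18 without vehicle replicate 2, and 0.72 at 20 mg/kg (adjusted p = 0.422), or 0.25 without that array and 1.19 without its partner. CDC25A, the phosphatase that activates CDK2, read 4.95 and 4.21 with vehicle, 4.98 and 4.56 with 4 mg/kg and 3.89 and 4.14 with 20 mg/kg. Both arrays of CDC25A at 20 mg/kg lay below all others, with a log2 change of -0.56 (SE 0.33, adjusted p = 0.406), which was -0.19 without vehicle replicate 1 and -0.93 without vehicle replicate 2. CDC25A lay near the level filter (mean log2 4.46), and its other probe sets lay under it, at means of 2.22 and 2.19. E2F2, an activating E2F, had the same value of 5.35 in 5 arrays and 5.47 in 4 mg/kg replicate 1.

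Of the chromatin genes, UHRF1, which guides DNA methylation to newly copied strands, had log2 values of 10.19 and 9.97 with vehicle, 9.93 and 10.66 with 4 mg/kg and 8.88 and 9.30 with 20 mg/kg. Both arrays at 20 mg/kg were below all others, at a log2 change of -0.99 (SE 0.32, 1.99-fold lower, adjusted p = 0.183). SLBP, which binds the stem-loop of histone mRNAs in S phase, had 11.18 and 10.94 with vehicle, 11.52 and 11.83 with 4 mg/kg and 11.25 and 11.41 with 20 mg/kg. Its groups did not overlap and all treated arrays were above vehicle, at log2 changes of 0.62 at 4 mg/kg (SE 0.16, 1.54-fold, adjusted p = 0.211) and 0.27 at 20 mg/kg (adjusted p = 0.399), the second 0.15 without vehicle replicate 2. CHAF1A, the large subunit of the histone chaperone CAF-1, overlapped between groups in every comparison, at -0.02 at 4 mg/kg and -0.24 at 20 mg/kg.

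**Figure D3:**
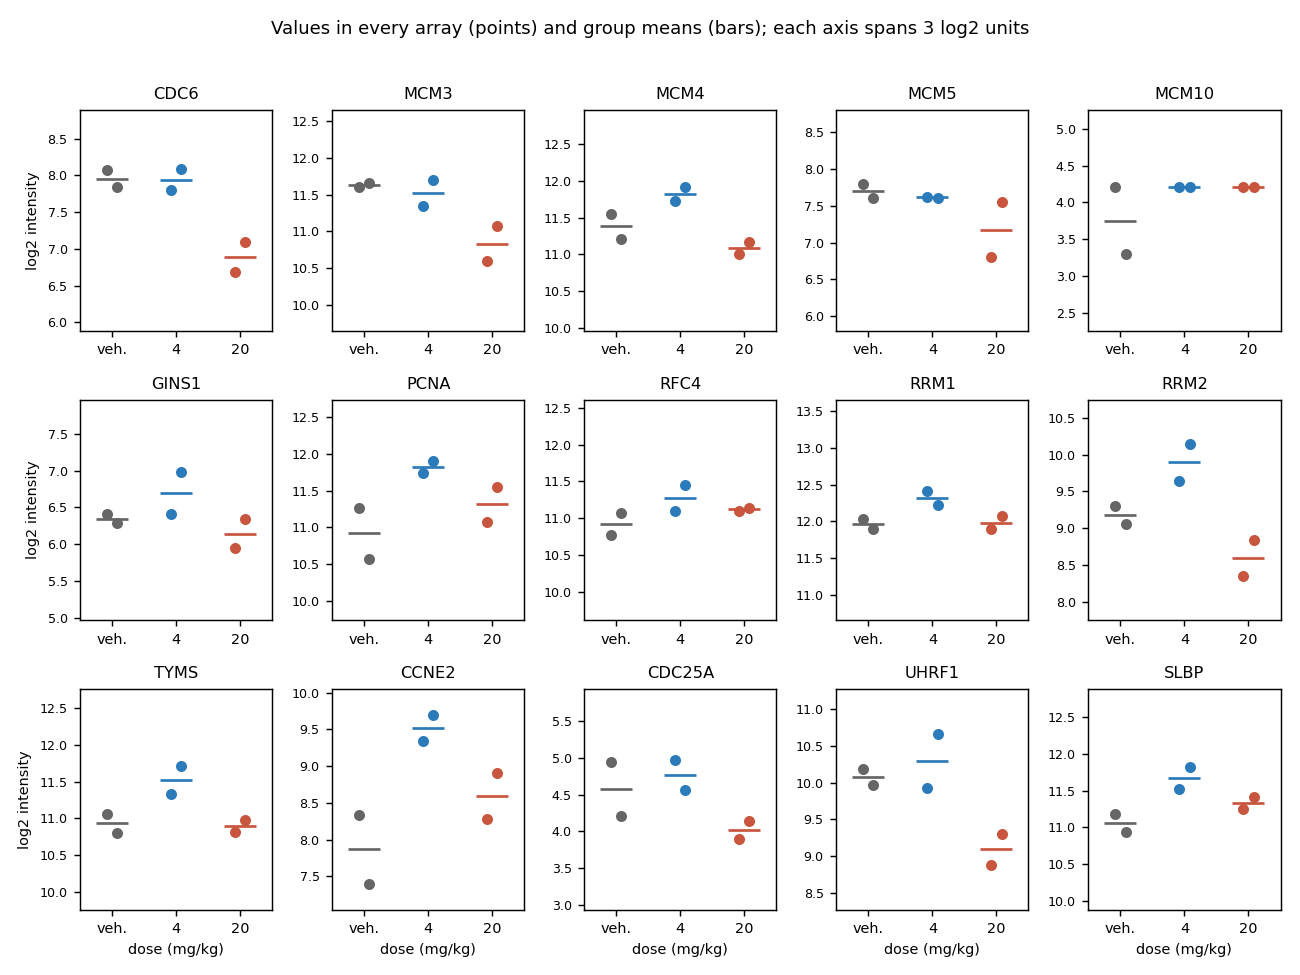
Log2 intensity (vertical axes, each spanning 3 log2 units) of 15 of the genes by dose in mg/kg (horizontal axes), with a point for each array and a bar for each group mean. In CDC6, MCM3, MCM4, MCM5, RRM2, CDC25A and UHRF1 both arrays at 20 mg/kg lie below all others, and in MCM4, GINS1, PCNA, RRM1, RRM2, TYMS, CCNE2 and SLBP both arrays at 4 mg/kg lie above all others. In GINS1, 4 mg/kg replicate 1 (6.4050) is barely above vehicle replicate 1 (6.4047). MCM10 differs in 1 vehicle array alone.

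The probe sets of a gene pointed the same way in 8 of 11 genes at 20 mg/kg against vehicle, and in 6 of 11 at 4 mg/kg against vehicle. These 11 of the 26 genes had 2 or more probe sets above the level filter, among 39 such probe sets in all. At 20 mg/kg against vehicle all probe sets pointed lower in 7 of the 11 genes (CDC6, FEN1, MCM4, MCM7, RRM2, TK1 and TYMS), higher in 1 (RRM1), and differed in 3. At 4 mg/kg against vehicle they pointed higher in 5 genes (CDT1, MCM10, RRM1, TK1 and TYMS), lower in 1 (MCM7), and differed in 5 (CCNE2, CDC6, FEN1, MCM4 and RRM2). This difference between the doses was not tested. Of the 39 probe sets, 28 had a lower mean and 8 a higher one at 20 mg/kg against vehicle, and 36 had a lower and 1 a higher one at 20 mg/kg against 4 mg/kg. Among all tested genes, each read by 1 probe set, the mean was lower in 49.4% and 51.6% in these comparisons, and higher in 41.8% and 39.7%. The shares over all probe sets were not computed, nor how often probe sets of other genes pointed the same way. None of the 39 passed a fit over all 16900 single-gene probe sets, added after seeing the data, in which 0% passed at 4 mg/kg against vehicle, 3.19% at 20 mg/kg against vehicle and 0.254% between the doses.

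Of the 4 genes with the largest differences at 4 mg/kg, CCNE2 and RRM2 had probe sets that disagreed, while PCNA and SLBP had 1 single-gene probe set each. The second probe set of CCNE2 read 7.87 and 7.74 with vehicle, 7.24 and 7.71 with 4 mg/kg and 7.03 and 7.40 with 20 mg/kg, which gives log2 changes of -0.33 at 4 mg/kg and -0.59 at 20 mg/kg, both opposite to the brighter one. For RRM2 the second probe set was at -0.04 at 4 mg/kg and -0.88 at 20 mg/kg, and for TYMS it was at 0.09 and -0.69. The 4 probe sets of MCM4 were at 0.44, -0.08, -0.30 and -0.08 at 4 mg/kg, and at -0.29, -0.39, -0.70 and -1.16 at 20 mg/kg, so only the brightest gave a higher mean at 4 mg/kg. Both probe sets of CDC6 placed the 20 mg/kg arrays below all others, at log2 changes of -1.06 and -0.75 against vehicle.

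**Figure D4:**
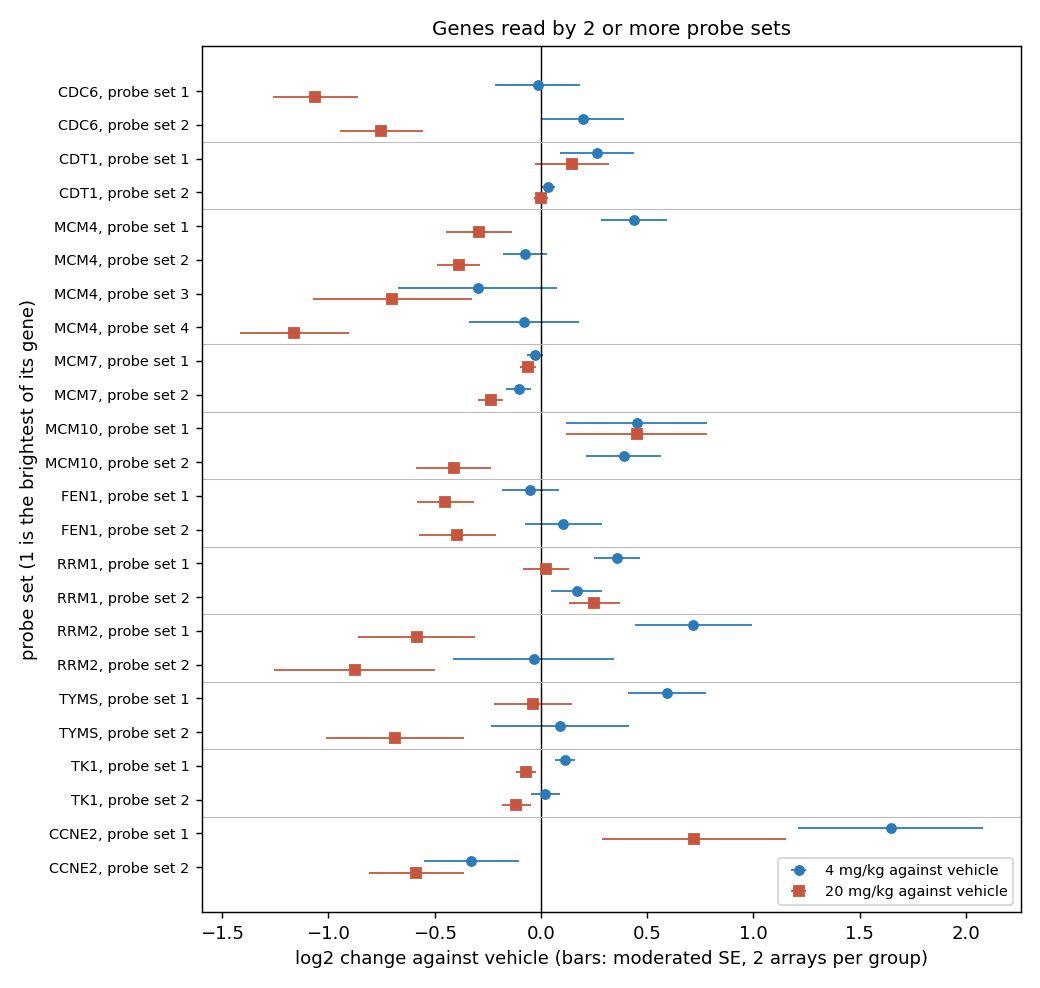
Log2 change at 4 mg/kg (circles) and 20 mg/kg (squares) against vehicle for each probe set of the 11 genes read by 2 or more, with bars for limma's moderated standard error over 2 arrays per group; probe set 1 is the brightest. The 4 MCM4 squares all lie left of 0, from -0.29 to -1.16, while its circles lie on both sides. The CCNE2 circles lie at 1.65 and -0.33.

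The replication genes also differed between arrays of the same group. In the vehicle group 6 of the 26 genes were higher in replicate 2 and 17 lower (median difference -0.15), in the 4 mg/kg group 18 were higher and 5 lower (0.27), and in the 20 mg/kg group 20 were higher and 3 lower (0.22). Among all tested genes replicate 2 was higher in 47% within the vehicle group, 62.8% within the 4 mg/kg group and 52.6% within the 20 mg/kg group, and lower in 37.5%, 19.1% and 29%, with a median difference of 0.08 in the 4 mg/kg group. The highest of the 6 values fell in 4 mg/kg replicate 2 for 16 genes (61.5%, against 25.4% of all tested genes), and the lowest in 20 mg/kg replicate 1 for 13 (50%, against 21.3%). The median residual SD was 0.20 for the 26 genes and 0.14 for all tested genes, and a median difference between replicates of 0.27 exceeds the median change of 0.20 at 4 mg/kg against vehicle.

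Upstream of these genes, regulators of the G1/S step passed the test at 20 mg/kg, where 4 of the 14 measured cyclins, CDKs and inhibitors did (4.33% of all tested genes). CCND1, or cyclin D1, had log2 values of 11.78 and 11.97 with vehicle, 11.64 and 11.64 with 4 mg/kg and 7.97 and 8.65 with 20 mg/kg, and fell by 3.56 (SE 0.26, adjusted p = 0.0231). MYC, a growth transcription factor, fell by 2.56 (SE 0.15, adjusted p = 0.0174), while the CDK inhibitors CDKN1B, or p27 (log2 1.84, SE 0.14, adjusted p = 0.0246), and CDKN1C, or p57 (0.81, SE 0.09, adjusted p = 0.0418), rose. CDKN1B was also higher in both arrays at 4 mg/kg (12.33 and 12.60, against 11.57 and 11.36 with vehicle), without passing the test (adjusted p = 0.15), whereas CDKN1C was at -0.07. Only LIN9, a subunit of the MuvB complex, passed among the 11 measured E2F and pocket protein regulators at 20 mg/kg against vehicle. Its mean was higher (log2 0.79, SE 0.06, adjusted p = 0.0227). Of the 11, 5 had a higher and 5 a lower mean in that comparison, with log2 changes from -0.43 to 1.79.

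In the rest of the replication machinery few genes passed at 20 mg/kg against vehicle, and in every further list described here none passed at 4 mg/kg against vehicle or between the doses. Of 16 other licensing and origin genes only ORC4, a subunit of the origin recognition complex, passed, with a higher mean (log2 0.66, SE 0.08, adjusted p = 0.0475). Of the 16, 9 had their highest mean at 4 mg/kg, against 28% of all tested genes. Of 19 other fork genes none passed, and 8 had their highest mean at 4 mg/kg, against 28% of all tested genes. Their median log2 change at 4 mg/kg against vehicle was 0.01. The fork genes with the largest differences were POLD2, a polymerase delta subunit, at -0.70 at 20 mg/kg (adjusted p = 0.0678), and RFC3, a clamp loader subunit, at 0.69 at 4 mg/kg (adjusted p = 0.313). Of 13 other nucleotide supply genes 5 had their highest mean at 4 mg/kg (28% of all tested genes). Another 7 were lower at each step of dose (22.7% of all tested genes). Their median log2 change at 4 mg/kg against vehicle was -0.13, with 8 lower and 5 higher. Among these 13, CTPS1, which makes CTP, fell at 20 mg/kg and passed the test. It read 9.01 and 9.14 with vehicle, 8.43 and 8.77 with 4 mg/kg and 7.59 and 7.59 with 20 mg/kg, a log2 change of -1.49 (SE 0.13, adjusted p = 0.0301).

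Further E2F targets in chromatin and DNA repair had their highest mean at 4 mg/kg in 14 of 16 measured genes (28% of all tested genes), with a median log2 change of 0.44 at 4 mg/kg and -0.03 at 20 mg/kg against vehicle, and none passed the test. HELLS, a chromatin remodeller, was at 1.08 at 4 mg/kg (SE 0.39, adjusted p = 0.304), with both arrays above both vehicle arrays, but at 0.60 without vehicle replicate 2 and at 0.55 by its next brightest probe set. Mitosis genes had the same order in 21 of 24, at a median of 0.48 at 4 mg/kg and 0.15 at 20 mg/kg. Of these TOP2A, the topoisomerase that untangles sister chromatids, rose at 20 mg/kg (log2 1.47, SE 0.15, adjusted p = 0.0364) and had 9.73 and 9.45 with vehicle, 11.23 and 11.45 with 4 mg/kg and 10.96 and 11.16 with 20 mg/kg. Its mean was thus higher at both doses, unlike that of CDC6 or MCM3. The same held for 7 of the 26 genes (CDT1, MCM10, PCNA, RFC4, RRM1, CCNE2 and SLBP). By the next brightest probe set TOP2A was at 0.64 at 20 mg/kg and did not pass (adjusted p = 0.101).

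Of 7 measured replication-linked histone genes and their regulators, H2AC6 rose at 20 mg/kg, with log2 values of 7.04 and 7.62 against 5.34 and 5.34 with vehicle (log2 1.99, SE 0.21, adjusted p = 0.0375). It belongs to a family of near-identical histone genes, so which copy the probe set reads is uncertain. Of 7 measured p53 targets, GDF15, a secreted stress factor, fell at 20 mg/kg (log2 -1.04, SE 0.08, adjusted p = 0.0246). Among the epithelial markers KRT18 fell at 20 mg/kg (log2 -1.54, SE 0.18, adjusted p = 0.0416), and ALK and EML4 were at -0.08 and 0.04. Each of these 11 calls outside the 26 genes was lost in at least 4 of the 6 fits that left out 1 array, while their log2 changes kept their direction in each alternative that gave a value. When the probe sets of each gene were averaged, ORC4 was at 0.34, TOP2A at 0.70 and GDF15 at -0.35, each still past the threshold.

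The 7 listed genes that did not reach the level filter were ORC1, the largest subunit of the origin recognition complex, CDC45, a helicase activator, POLA1, the catalytic subunit of polymerase alpha, DSCC1, a subunit of a clamp loader, EXO1, a nuclease of DNA repair, E2F1, an activating E2F, and CCNE1, or cyclin E1. In 6 of them every array lay within 1 log2 unit of the lowest value on the array. CCNE1 was the brightest, with 3.29 and 3.28 with vehicle, 3.15 and 3.15 with 4 mg/kg and 3.03 and 2.94 with 20 mg/kg. These genes were not tested, and values so near the lowest one understate any difference between groups.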

How the data were processed

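Total RNA of 6 NCI-H2228 tumours or tumour samples was read on Affymetrix arrays for human genes. The deposited values are linear intensities of 54675 probe sets, which the authors computed in R 2.10.0 by GCRMA, per the submitters' processing notes. The sources used here do not give the set of arrays that were normalized jointly. GCRMA corrects background, normalizes quantiles and summarises probes by median polish, which can give equal values in different arrays and understates changes near its lowest value.

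Intensities were converted to log2. The platform annotation, possibly outdated, lists 1 gene for 41097 probe sets, several for 1801 and none for 11777. The brightest single-gene probe set stood for each gene, and 10271 of 19775 genes had a mean log2 of at least 4. A model of 3 group means was fitted to all 6 arrays with limma 3.58.1 in R 4.3.3 (lmFit, eBayes; 3 residual and 0.723 prior degrees of freedom). Tests are two-sided, with Benjamini-Hochberg adjustment over all tested genes within a comparison and a threshold of 0.05. The steps were checked on simulated independent normal values, which lack the equal values of the real arrays (531 genes were tied within all groups). That check covers the steps and cannot show how the tests behave on these data. The number of arrays limits the precision.

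The 33 genes and all other lists were chosen with earlier results of these data known, so no list was tested as a set. Values in every array are given for the 10 genes with the largest absolute change at 4 mg/kg and the 8 at 20 mg/kg, and for others where a sentence turns on them. From each other list, genes past the threshold are named, up to 4, and otherwise the 2 with the largest change. One gene that this rule selects is not reported here. Genes of these lists without a single-gene probe set were not analysed here. Arrays overlapped where the ranges of the groups did, with a tolerance of 1e-06. Alternatives left out each array, added the replicate number as a block, and changed normalization, filter, probe set, scale, arrays fitted and moderation. Genome coordinates were not used here.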

Additional observations from a re-analysis of the deposited data

How the results depend on the processing

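In 18 alternative settings per comparison, the median of the 26 genes kept its sign. Some changes turned with single arrays: 11 of the 26 genes at 4 mg/kg (sizes up to 0.21), RRM1 and TYMS at 20 mg/kg against vehicle (up to 0.038), and CDT1 and RFC4 between the doses (up to 0.16). At 4 mg/kg some of these were as large as the median change of the 26 genes, 0.20. UHRF1, for example, went from 0.21 to -0.15 without 4 mg/kg replicate 2. The number of genes passing, 0 in each comparison, ran from 0 to 1 when single arrays were left out at 4 mg/kg and at 20 mg/kg against vehicle (MCM10, without vehicle replicate 1, a fit that called 475 and 802 of all genes) and stayed at 0 between the doses. At 4 mg/kg it was 1 with arrays centred on their median (CCNE2). At 20 mg/kg against vehicle it was 3 after quantile normalization (CDC6, MCM3, UHRF1), 4 with centred arrays (CDC6, FEN1, MCM3, UHRF1) and 1 without genes tied in all groups (CDC6, among 819 of 9740 genes). Between the doses it was 2 after quantile normalization (CDC6, RRM2) and 4 with centred arrays (CDC6, MCM4, RRM2, UHRF1). The same settings called more of all tested genes: 766, 1958 and 494 with centred arrays and 41, 1536 and 333 after quantile normalization, against 6, 445 and 38, in the order 4 mg/kg against vehicle, then 20 mg/kg against vehicle, then between the doses. With the replicate number as a block 0 of the 26 genes passed in each comparison, and 0, 93 and 0 of all genes. Same-numbered arrays deviated together with correlations of 0.15, -0.12 and 0.13, so the numbers were not taken as pairs.

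The median change between the doses ran from -0.604 to -0.255 when arrays were left out. With the next brightest probe set, where 11 genes had one, the medians were 0.034 at 4 mg/kg and -0.39 at 20 mg/kg against vehicle, and 6 of the 11 genes were highest at 4 mg/kg. The count of 17 genes highest at 4 mg/kg ran from 11 to 20 when arrays were left out. With the next brightest probe set, changes at 4 mg/kg turned for CCNE2 (-0.33), RRM2 (-0.035) and MCM4 (-0.076, the same with cross-hybridising probe sets left out, and -0.0031 as the mean of its probe sets). At 20 mg/kg they turned for CCNE2 (-0.59), MCM10 (-0.41) and RBL2 (-0.39), and between the doses for RRM1 (0.081). RFC4 between the doses ran from -0.34 to 0.018 when arrays were left out, the last without 4 mg/kg replicate 2. Of the other values of single genes, 708 did not reverse and kept their side of the threshold, 88 kept their direction and lost the call and 26 gained it. The 708 include changes that were or became 0, such as that of MCM10 at 4 mg/kg without vehicle replicate 2. The cause of these differences was not tested. Low signal limits the 7 genes under the filter.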

Other observations

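RBL2, or p130, the pocket protein that holds E2F targets down in resting cells, was chosen for mention after its values were seen. It had log2 values of 9.75 and 8.97 with vehicle, 10.75 and 10.74 with 4 mg/kg and 10.95 and 11.14 with 20 mg/kg. All treated arrays lay above both vehicle arrays, at log2 changes of 1.38 at 4 mg/kg (limma adjusted p = 0.18) and 1.68 at 20 mg/kg (adjusted p = 0.0761), neither past the threshold. The change at 20 mg/kg was 1.29 without vehicle replicate 2, and -0.39 with the next brightest probe set of RBL2.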
